A study of Mus musculus with 6 samples.

Results

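The genes of the CTCF and cohesin loop machinery were followed in small pre-B cells of mouse bone marrow. The set held Ctcf, the cohesin subunits Smc1a, Smc3, Rad21, Stag1, Stag2 and Stag3, the loader Nipbl, the release factor Wapl and the cohesin-bound regulator Pds5b. These 10 genes were chosen by symbol from a table of 49997 gene symbols, and all 10 passed the filter on low counts that left 7792 genes for testing. RNA was sequenced from flow-sorted small pre-B cells of C57BL/6 mice aged 6 to 12 weeks, 3 libraries from wild-type (WT) mice and 3 from mice with the ΔrsCBE genotype. The prefix Δ marks a deletion, whose interval the labels do not give, and no treatment is named for either genotype. Cells of this stage have largely left the division cycle and recombine their light chain genes. The series title ties the deletion to CTCF-mediated chromatin topology and receptor editing, so the comparison asks here whether the RNA of the loop machinery itself differs between the genotypes.

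Cohesin is a ring of Smc1a, Smc3 and Rad21, to which one of the STAG proteins binds. The ring is loaded onto DNA by Nipbl with Mau2, extrudes chromatin loops until it meets CTCF bound to DNA in the right orientation, and is taken off by Wapl with a Pds5 protein. In precursor B cells such loops bring distant variable genes of the immunoglobulin loci near the recombination centre. The same ring holds sister chromatids together from DNA replication to mitosis, and Stag3 is best known as the STAG subunit of meiotic cohesin in germ cells.

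Total counts lay between 428106 and 1300805 per library. Levels are given in CPM, which are counts normalized to equal library size with TMM factors. A floor of 3 counts, below which a gene that is present can still show a count of 0, corresponded to 2.38 to 7.36 CPM. This floor covers counting error only, because no molecular identifiers mark which reads stem from 1 molecule. The labels do not say whether replicates came from separate mice, so p-values measure the spread between these libraries. The pre-B markers Cd79a, Cd79b, Ebf1, Pax5, Rag1, Rag2, Il2ra, Il7r and Vpreb3 summed to 9567 to 11470 CPM in WT and 10500 to 11330 CPM in ΔrsCBE, and 0 of 9 passed the test. Sums over T-cell and erythroid markers stayed at or below 4.90 CPM in each library, with Cd3e, Cd3g, Cd8a, Hbb-bs and Klf1 at 0. Myeloid markers summed to 53.1 to 83.4 CPM in WT and 54.5 to 68.2 CPM in ΔrsCBE, nearly all from Itgam, with Elane and S100a8 at 0. Lyz2 and S100a9 had 0 counts in each WT library. In ΔrsCBE replicates 1, 2 and 3 Lyz2 had 2, 4 and 2 counts and S100a9 had 2, 1 and 3. Csf1r overlapped, with 4, 0 and 2 counts in WT and 1, 1 and 2 in ΔrsCBE. These genes were too low to be tested. Plasma-cell markers (Sdc1, Jchain, Prdm1, Xbp1) summed to 98.1 to 120 CPM and 119 to 147 CPM, and 0 of the 2 tested genes passed. Xist, which marks the inactive X chromosome of females, reached 1603 counts in ΔrsCBE replicate 2 and 1430 in ΔrsCBE replicate 3, against at most 1 count elsewhere, so the female pattern occurred only in ΔrsCBE. A list of 22 cell-cycle genes was lower in ΔrsCBE: 17 of its 20 tested genes fell and 0 rose (edgeR's quasi-likelihood test), and the median log2 fold change was -1.19. Among all tested genes 1.49% fell and 0.205% rose by the same test. The list holds genes already known to be lower in these libraries, so its count is no independent evidence of a direction. The list's summed level was 6702 to 7570 CPM in WT and 2792 to 4470 CPM in ΔrsCBE. The part of sex and of the cell-cycle genes in the results that follow was not tested. In sorted cells measured in bulk, fewer cells with a transcript and less of it per cell cannot be told apart.

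Of the 10 genes, 1 fell in ΔrsCBE, Stag3, and 0 rose, at an adjusted p-value under 0.05 over all 7792 tested genes. Among all tested genes 1.69% passed this threshold, 1.49% lower and 0.205% higher. The fitted change was below 0 for 8 of the 10 genes, and their median log2 fold change was -0.21 beside 0.01 over all tested genes. The members' median was -0.12 without ΔrsCBE replicate 1, -0.33 without ΔrsCBE replicate 2, -0.45 with sex as a covariate and -0.45 in the male libraries alone. The CPM values of the genotypes did not overlap for 4 genes, Ctcf, Rad21, Stag1 and Stag3, all lower in ΔrsCBE, which was true of 16.1% of all tested genes in either direction and of 8.92% in the lower direction. An unadjusted p-value under 0.05 was reached by 5 of the 10 genes (Rad21, Stag1, Stag2, Stag3 and Wapl) and by 10.2% of all tested genes.

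**Figure D1:**
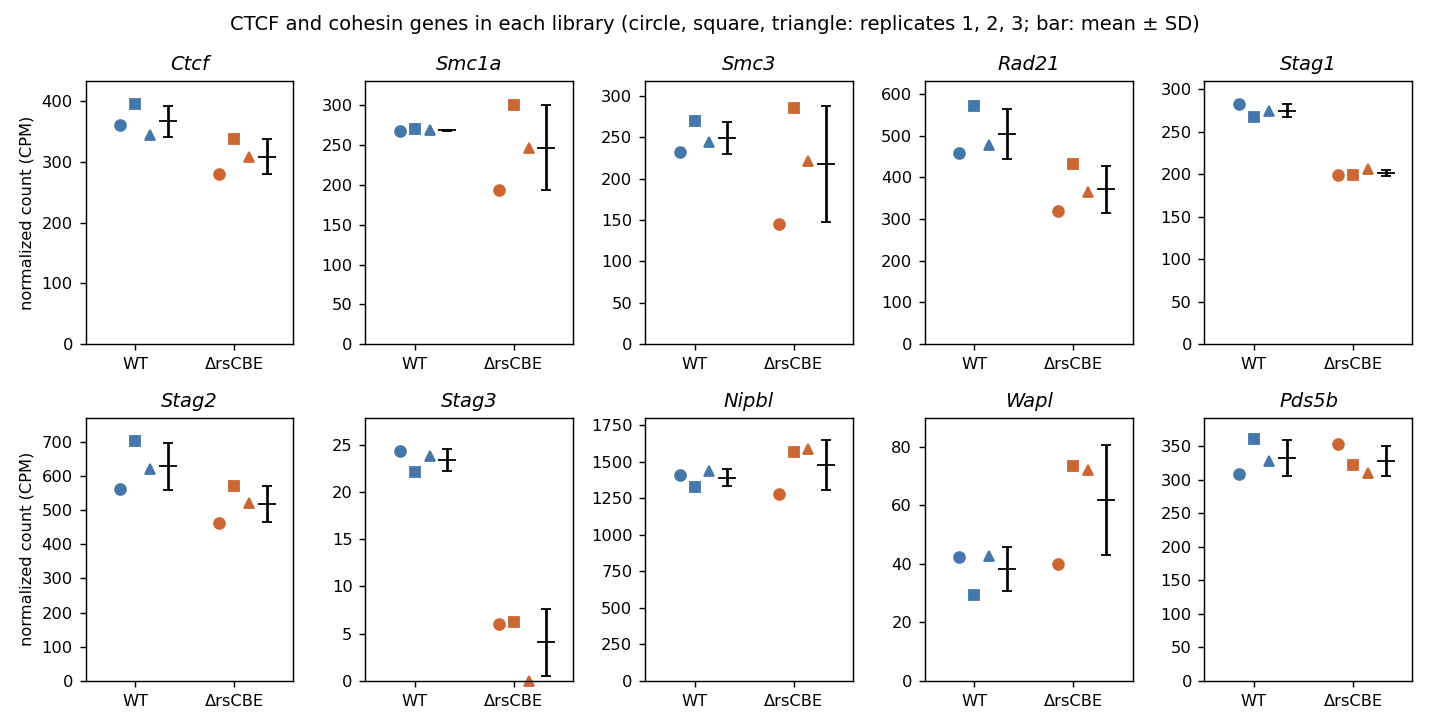
Normalized counts (CPM, vertical axes from 0) of the 10 genes in 3 WT and 3 ΔrsCBE libraries, 1 panel per gene. Points are libraries, and bars show the mean and SD of 3 libraries. Stag3 lay between 22.1 and 24.3 CPM in WT and at or below 6.20 CPM in ΔrsCBE, and the 3 ΔrsCBE values of Stag1 lie close together below the WT values.

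Stag3 showed the largest change of the set. It passed the filter on low counts through its WT libraries alone, the group in which it was higher. Read counts were 15, 9 and 30 in the WT libraries, in the order of their replicate numbers, and 5, 6 and 0 in the ΔrsCBE libraries, the order used for all values here. Scaled for depth, this was 24.3, 22.1 and 23.8 CPM in WT and 6.05, 6.20 and 0 CPM in ΔrsCBE. The WT libraries were close to each other, each ΔrsCBE library was far below them, and in ΔrsCBE replicate 3 a count of 0 allowed a level of up to 3.79 CPM. The means were 23.4 ± 1.18 and 4.08 ± 3.54 CPM (SD, n = 3). On the log2 scale the change was -2.43 (SE 0.50, 95% interval -3.47 to -1.40, edgeR adjusted p-value 0.00666). DESeq2's Wald test gave an adjusted p-value of 0.0156. The call rests on few reads and on single libraries: the edgeR adjusted p-value was 0.125 without WT replicate 3 and 0.0589 without ΔrsCBE replicate 3, where the log2 fold change was -1.92. It was 0.243 with sex as a covariate and 0.0995 in the male libraries alone, where ΔrsCBE replicate 1 stood by itself and the log2 fold change was -1.93. Over the 15 alternatives the adjusted p-value ranged from 0.000156 to 0.243, and the log2 fold change from -2.87 to -1.92.

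Stag3 (chromosome 5, 138280240 to 138312393, plus strand, GENCODE M21 on GRCm38) overlaps no other annotated gene. Its nearest protein-coding neighbour in the count table is Gpc2, a cell-surface proteoglycan gene that lies 235 bases away on the opposite strand and is read in the opposite direction. Gpc2 had 17.9, 7.36 and 13.5 CPM in WT and 10.9, 18.6 and 13.9 CPM in ΔrsCBE. These values overlapped, with a log2 fold change of 0.12 (95% interval -0.72 to 0.95 by edgeR). On the other side, Pvrig is listed at 0 in each library, and the zinc-finger gene Zfp157, 129075 bases beyond the end of Stag3, had a log2 fold change of -0.23 (SE 0.20, edgeR adjusted p-value 0.774). The other neighbour by the annotation, Gm43720, was not analysed here.

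The other components known from germ-cell cohesin were listed at 0 in each of the 6 libraries. They were Smc1b, the meiotic partner of Smc3, Rec8 and Rad21l, the meiotic kleisins that replace Rad21, and Ctcfl, the testis paralog of Ctcf. Of 8 germ-cell markers, 6 (Ddx4, Dazl, Sycp1, Sycp2, Sycp3 and Hormad1) were also at 0. The remaining markers, Dmc1 and Spo11, had 2 and 11 counts over all libraries, and the list summed to at most 3.96 CPM in WT and 3.63 CPM in ΔrsCBE. Stag3 was thus the 1 gene of these germline cohesin components with counts in small pre-B cells.

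The start region of Stag3 is shown because this gene carried the 1 change past the threshold. RefSeq promoter windows on GRCm38.p6, 250 bases before to 50 after the annotated start, were held for 7 of the 10 genes (Ctcf, Pds5b, Smc1a, Smc3, Stag1, Stag3 and Wapl). They were searched on both strands for 3 motifs. These were the E2F core TTCCCGC, bound by the E2F factors of the cell cycle, the E-box CACGTG, bound by MYC and related proteins, and the cell-cycle homology element TTTGAA. The E2F core was found in 3 of the 7 windows (Stag3, Stag1 and Smc1a) and in 4.60% of 32851 windows of 300 bases. The E-box was found in Stag3 alone of the 7 and in 7.15% of all windows, and TTTGAA in Ctcf and Pds5b and in 17.9% of all windows. The 32851 windows were not matched to the members in expression or base composition, so these shares are no test of an excess. No 2 of the motifs overlap in the windows of the members. The E2F core and E-box matches are shown with their surroundings, 30 bases on the plus strand, with the motif in capitals:
Stag3, E2F core, chr5:138280494-138280523: ttatcccgtgccTTCCCGCgtttttttcta
Stag3, E-box, chr5:138280327-138280356: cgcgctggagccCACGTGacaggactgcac
Stag1, E2F core, chr9:100643420-100643449: aaaaggccacgtTTCCCGCgccgctgctgc
Smc1a, E2F core, chrX:152016448-152016477: cggcttgcactgcgctatTTCCCGCgcggg
Counted from the RefSeq start, the core begins 3 bases before it in Stag3 (start at 138280509), 16 bases before it in Stag1 (100643448) and at base 39 after it in Smc1a (152016428). GENCODE M21 places the outermost start of Stag3 and of Stag1 further upstream, by 269 and 45650 bases, so by that annotation both cores lie inside the gene. A match of letters is a description of the sequence and shows no binding.

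The somatic STAG subunits were measured far more deeply. Stag1 (chromosome 9, 100597798 to 100959375, plus strand), whose protein serves cohesin at CTCF sites and telomeres, had 282, 267 and 274 CPM in WT and 199, 200 and 206 CPM in ΔrsCBE. Each ΔrsCBE library lay below each WT library, and the spread within a genotype was small, with means of 275 ± 7.5 and 201 ± 4.0 CPM (SD, n = 3). The log2 fold change was -0.45 (SE 0.12, 95% interval -0.71 to -0.19), and Stag1 missed the threshold (edgeR adjusted p-value 0.0659, with a range of 0.0649 to 0.282 over the alternatives). The size hardly depended on the choice of libraries or method, lying between -0.47 and -0.43 in all 15 alternatives.

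Stag2 (chromosome X, 42149317 to 42277185, plus strand), the other somatic STAG subunit, had 563, 701 and 619 CPM in WT and 462, 571 and 520 CPM in ΔrsCBE. The genotypes overlapped at a single pair of libraries, WT replicate 1 and ΔrsCBE replicate 2. Its log2 fold change was -0.27 (SE 0.11, 95% interval -0.51 to -0.04, edgeR adjusted p-value 0.363).

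Rad21 (chromosome 15, 51962240 to 51991747, minus strand), the kleisin that closes the ring, had 459, 571 and 478 CPM in WT and 318, 431 and 365 CPM in ΔrsCBE. All WT values lay above all ΔrsCBE values, and replicate 2 was the highest library of both genotypes. The log2 fold change was -0.42 (SE 0.12, 95% interval -0.68 to -0.17), short of the threshold in the fit of all libraries (edgeR adjusted p-value 0.0919). Rad21 passed it without ΔrsCBE replicate 2 (log2 fold change -0.55, adjusted p-value 0.0119). With sex as a covariate the log2 fold change was -0.65, and in the male libraries alone -0.65. Both of these values rest on ΔrsCBE replicate 1 alone, the lowest library for Rad21. The adjusted p-value rose to 0.452 without WT replicate 2, so the side of the threshold depends on single libraries while the sign was below 0 in all 15 alternatives.

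The ring subunits Smc1a and Smc3, the ATPase pair of cohesin, differed more among the ΔrsCBE libraries than between the genotypes. Smc3 (chromosome 19, 53600398 to 53645833, plus strand) had 232, 270 and 245 CPM in WT and 145, 285 and 221 CPM in ΔrsCBE. ΔrsCBE replicate 1 was the lowest and ΔrsCBE replicate 2 the highest of the 6 libraries. The log2 fold change was -0.18 (SE 0.18, 95% interval -0.55 to 0.19, edgeR adjusted p-value 0.807). With sex as a covariate it was -0.77 with an adjusted p-value of 0.0478, and in the male libraries alone -0.76 with 0.0116, and both values rest on ΔrsCBE replicate 1 alone. Without that library the log2 fold change was 0.04.

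Smc1a (chromosome X, 152016428 to 152062694, plus strand) followed the same order, with 268, 270 and 269 CPM in WT and 194, 301 and 246 CPM in ΔrsCBE. The WT libraries were nearly equal and lay inside the range of the ΔrsCBE libraries. Its log2 fold change was -0.12 (SE 0.14, 95% interval -0.41 to 0.17, edgeR adjusted p-value 0.852), and it was 0.03 without ΔrsCBE replicate 1. With sex as a covariate it was -0.47, and in the male libraries alone -0.47, and both values rest on ΔrsCBE replicate 1 alone.

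Ctcf (chromosome 8, 105636568 to 105682922, plus strand), the zinc-finger protein that stops the extruding ring, had 360, 395 and 344 CPM in WT and 280, 337 and 308 CPM in ΔrsCBE. The genotypes did not overlap, although the gap between WT replicate 3 and ΔrsCBE replicate 2 was small. For Ctcf the log2 fold change was -0.24 (SE 0.12, 95% interval -0.48 to 0.01), and Ctcf missed the threshold (edgeR adjusted p-value 0.515). The annotation places exons of Agrp and Gm5914 over exons of Ctcf on the opposite strand. Since the strand setting of the counting is not given in the sources used here, reads of that overlap are uncertain, but Agrp had 0 counts and Gm5914 had 48 over all libraries beside 1618 for Ctcf.

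**Figure D2:**
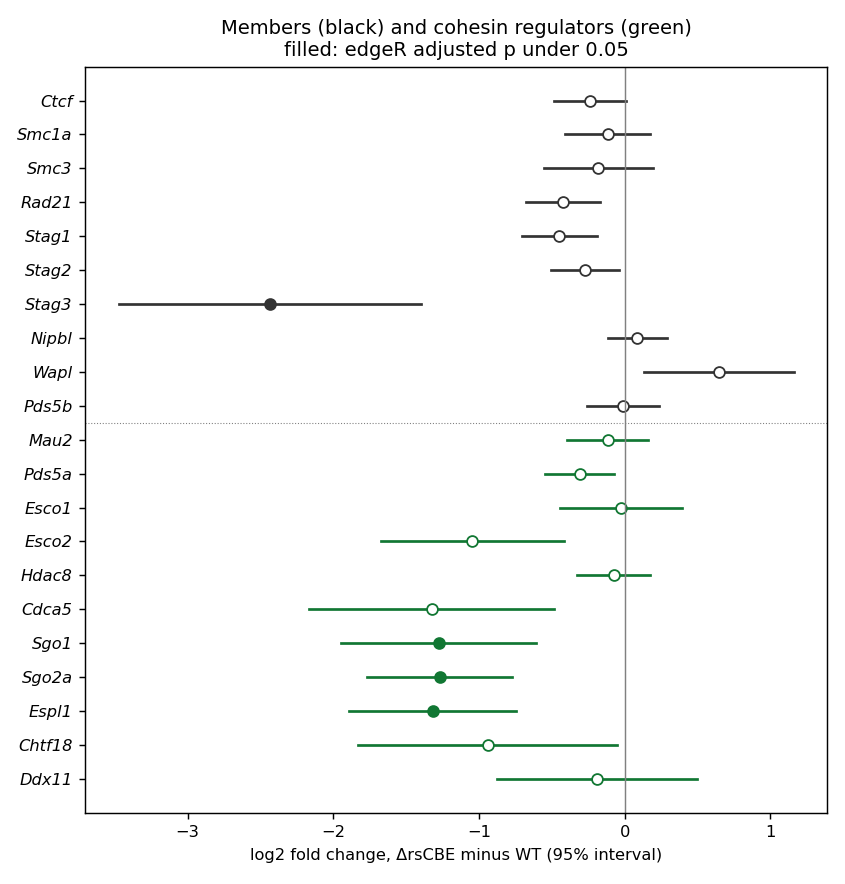
Log2 fold change of ΔrsCBE against WT with its 95% interval (horizontal axis) for the 10 genes (black) and for 11 tested cohesin regulators (green). Filled points passed the edgeR threshold: Stag3, with -2.43, and the regulators Sgo1, Sgo2a and Espl1, between -1.32 and -1.27.

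The loader and the release factor had fitted changes above 0 without passing the test. That of Nipbl was below 0 (-0.12) with sex as a covariate and in the male libraries alone. In both of these fits ΔrsCBE replicate 1 was the library set against WT. Nipbl (chromosome 15, 8290617 to 8444463, minus strand) was the most deeply counted gene of the set, with 1407, 1327 and 1439 CPM in WT and 1281, 1565 and 1588 CPM in ΔrsCBE. ΔrsCBE replicate 1 lay below all WT libraries and the other ΔrsCBE libraries above them. Nipbl had a log2 fold change of 0.09 (SE 0.10, 95% interval -0.12 to 0.29, edgeR adjusted p-value 0.841).

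Wapl (chromosome 14, 34673928 to 34747983, plus strand), which opens the ring and frees it from chromatin, had 26, 12 and 54 counts in WT and 33, 71 and 57 counts in ΔrsCBE. This was 42.2, 29.4 and 42.8 CPM in WT and 39.9, 73.4 and 72.0 CPM in ΔrsCBE. ΔrsCBE replicates 2 and 3, the libraries with Xist counts, lay above all others, and ΔrsCBE replicate 1 lay within the WT range. The log2 fold change was 0.64 (SE 0.25, 95% interval 0.13 to 1.16, edgeR adjusted p-value 0.294). Without ΔrsCBE replicate 1 it was 0.87, past the threshold with an adjusted p-value of 0.0477. In the male libraries alone, where ΔrsCBE replicate 1 stood by itself, it was 0.01.

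Pds5b (chromosome 5, 150673739 to 150810690, plus strand), which sits on the ring beside Wapl, had 308, 361 and 328 CPM in WT and 353, 321 and 309 CPM in ΔrsCBE. The ranges nearly coincided, and the log2 fold change was -0.01 (SE 0.12, 95% interval -0.26 to 0.23, edgeR adjusted p-value 0.988). Its paralog Pds5a had 394, 356 and 351 CPM in WT and 308, 290 and 289 CPM in ΔrsCBE. These groups did not overlap, and Pds5a was not past the threshold, with a log2 fold change of -0.31 (SE 0.12, edgeR adjusted p-value 0.278).

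**Figure D3:**
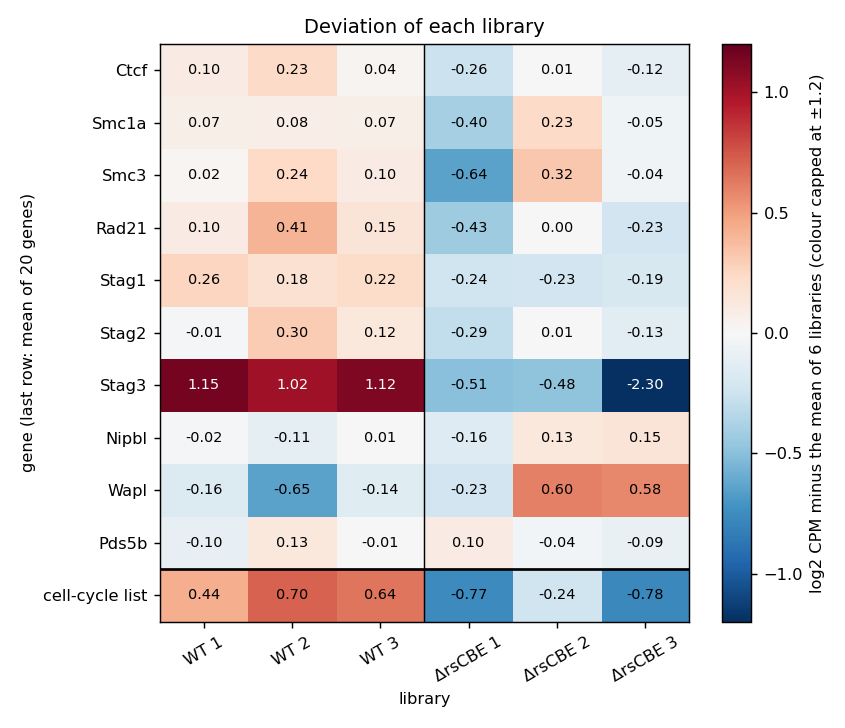
Deviation of log2 CPM in each library (columns) from the mean of the 6 libraries, for the 10 genes and, in the last row, the mean over 20 cell-cycle genes. Ctcf, Smc1a, Smc3, Rad21, Stag1, Stag2 and Nipbl are lowest in ΔrsCBE replicate 1, and Wapl is highest in ΔrsCBE replicates 2 and 3. The cell-cycle row is above 0 in all WT libraries and below 0 in all ΔrsCBE libraries.

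Several members shared the library in which they were highest or lowest within a genotype. The share of all tested genes with the same order was not counted, so the pattern may not be particular to these genes. Of the 10 genes, 8 had their lowest ΔrsCBE value in replicate 1 and 7 their highest ΔrsCBE value in replicate 2. In WT, replicate 2 had the highest value for 6 genes and the lowest for 4. Over all genes with enough counts, ΔrsCBE replicates 1 and 2 also differed most among the replicate pairs (chi-square over its degrees of freedom 3.18). Across the 6 libraries log2 CPM of Ctcf and Rad21 had a Pearson r of 0.981, and Rad21 and Stag2 one of 0.981. Smc1a and Smc3 had one of 0.979, and Nipbl and Wapl one of 0.898. These pairs were among the highest, and others lay near or below 0. Examples are Ctcf and Nipbl (-0.0318), Stag3 and Wapl (-0.74) and Nipbl and Pds5b (-0.777). The values of a library share its depth and scaling, and these correlations are given as a description. The cell-cycle score, the mean deviation of 20 genes, was 0.44, 0.70 and 0.64 in WT and -0.77, -0.24 and -0.78 in ΔrsCBE. The library with the highest score was replicate 2 in both genotypes, and the scores of ΔrsCBE replicates 1 and 3 were nearly equal. All members except Stag3 and Pds5b were higher in ΔrsCBE replicate 3 than in replicate 1. Whether the score bears on the levels of the members was not tested.

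Levels of different genes were compared per kilobase of annotated exon. In WT the order was Nipbl (148 ± 6.14 CPM per kb), Rad21 (119 ± 14.2), Stag2 (75.9 ± 8.41), Ctcf (75.4 ± 5.37), Smc1a (46.6 ± 0.178), Smc3 (44.9 ± 3.47), Pds5b (33.8 ± 2.68), Stag1 (23.3 ± 0.639), Wapl (5.76 ± 1.14) and Stag3 (4.08 ± 0.206; CPM per kb, SD, n = 3 throughout). Stag2 and Ctcf overlapped between libraries, as did Smc1a and Smc3, and the other neighbours in this order did not. Wapl and Stag3 were the least abundant, and the range of Wapl, from 4.44 CPM per kb upward, began just above that of Stag3, which ended at 4.25. In ΔrsCBE Wapl was at 9.33 ± 2.86 CPM per kb and Stag3 at 0.712 ± 0.617. The lengths are those of all annotated exons merged, so a long exon that these cells do not use lowers the value of its gene.

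**Figure D4:**
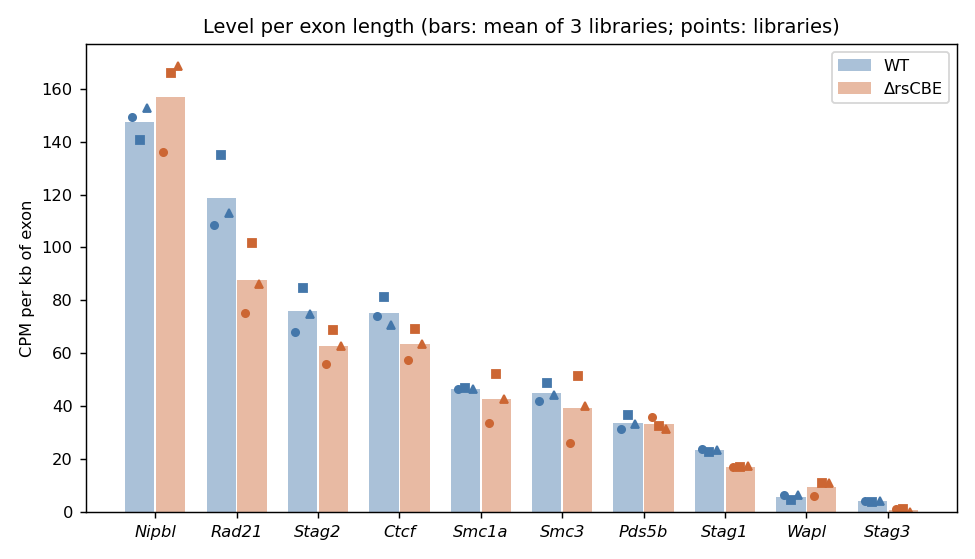
Level of each gene in CPM per kb of exon (vertical axis from 0), ordered by the WT mean. Bars are means of 3 libraries and points are libraries. Nipbl stands highest with 148 CPM per kb in WT, and Wapl and Stag3 stand lowest with 5.76 and 4.08.

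Ratios within a library do not depend on how libraries are scaled, and 4 were compared by an exact two-sided permutation test, which cannot go below 0.1 with 3 libraries against 3. The ratio of Nipbl to Wapl per kb, loader over release factor, was 23.4, 31.7 and 23.6 in WT and 22.5, 15 and 15.5 in ΔrsCBE. The groups did not overlap, but ΔrsCBE replicate 1 was close to the WT range, and the log2 difference was -0.58 (exact permutation p-value 0.1, 0.4 after Benjamini-Hochberg adjustment over the 4 ratios). The ratio of Stag2 to Stag1 was 2.84, 3.74 and 3.22 in WT and 3.32, 4.07 and 3.60 in ΔrsCBE, with Stag2 above Stag1 in every library and overlapping groups (log2 difference 0.17, exact permutation p-value 0.4). For Rad21 to Smc3 the log2 difference was -0.19 with an exact permutation p-value of 0.4, and for Rad21 to Ctcf it was -0.19 with 0.2. The adjusted value was 0.4 for each of the 4 ratios. The difference for Stag2 to Stag1 shrank to 0.07 without WT replicate 1 and to 0.09 without ΔrsCBE replicate 2, and was 0.27 without WT replicate 2. For Rad21 to Smc3 leaving out ΔrsCBE replicate 2 gave -0.08, and leaving out ΔrsCBE replicate 1 gave -0.35.

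**Figure D5:**
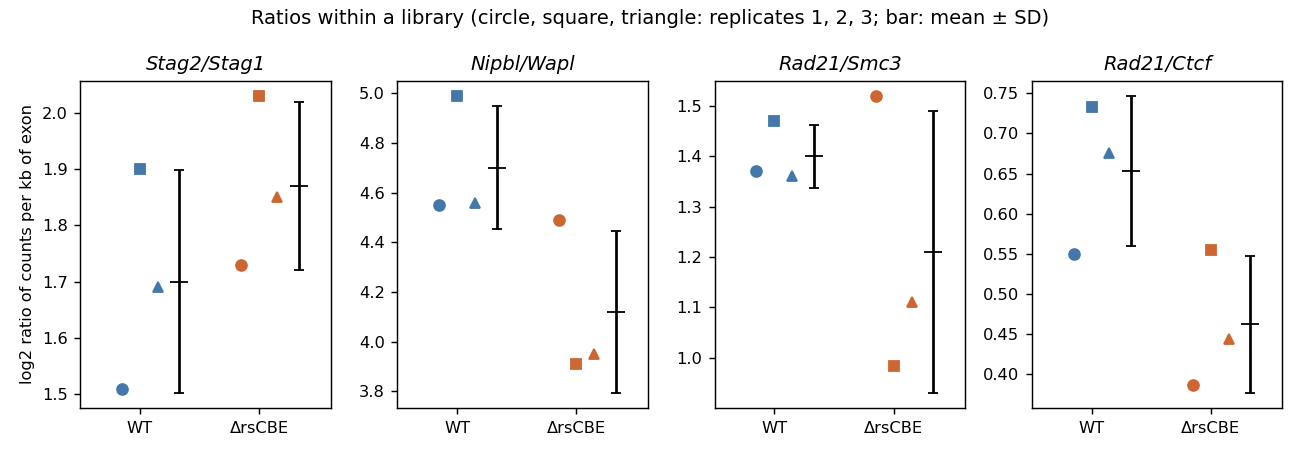
Log2 ratio of counts per kb of exon (vertical axes) for 4 pairs of genes in each library, with the mean and SD of 3 libraries as bars. The Nipbl to Wapl ratio of ΔrsCBE replicate 1 (4.49) lies near the WT libraries (4.55 to 4.99), and those of replicates 2 and 3 lie at 3.91 and 3.95. The axes do not start at 0.

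Of 14 further regulators of cohesin, 11 were tested, 3 fell in ΔrsCBE and 0 rose, and the median log2 fold change was -0.94 beside 0.01 over all tested genes. Among all tested genes 1.69% passed the threshold, 1.49% lower. This list too was chosen with earlier results of these data known, so its count is no independent evidence of a direction. Sgo2a and Sgo1, the shugoshins that guard centromeric cohesin, had log2 fold changes of -1.27 (SE 0.24, edgeR adjusted p-value 0.00313) and -1.28 (SE 0.33, 0.0382). Espl1, the separase that cuts Rad21 at anaphase, fell from 57.6 ± 5.38 to 22.2 ± 9.21 CPM (SD, n = 3), with a log2 fold change of -1.32 (SE 0.28, edgeR adjusted p-value 0.00729). Without WT replicate 3, 0 of these regulators passed the threshold. Without ΔrsCBE replicate 3 Sgo2a alone passed, and without ΔrsCBE replicate 2 there were 5. With sex as a covariate the 1 gene past the threshold was Chtf18, a clamp-loader subunit, which missed it in the fit of all libraries (log2 fold change -0.94, edgeR adjusted p-value 0.436). The genotype effect of the covariate fit rests on ΔrsCBE replicate 1, where Chtf18 had 2 counts. In that library Sgo1, Sgo2a and Espl1 had 10.9, 38.7 and 23.0 CPM, each below all WT libraries. Esco2, the acetyltransferase of DNA replication, and Cdca5, the sororin that protects cohesion against Wapl, had log2 fold changes of -1.05 and -1.33 and were not past the threshold (edgeR adjusted p-values 0.0895 and 0.12).

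Other regulators on the list had fitted changes closer to 0. Mau2, the partner of Nipbl, had a log2 fold change of -0.12 (SE 0.13), Hdac8, which deacetylates Smc3, -0.08 (SE 0.12), Esco1, which acetylates Smc3 outside replication, -0.03 (SE 0.20), and Ddx11, a helicase of DNA replication, -0.19 (SE 0.33). None of these 4 passed the edgeR threshold, with adjusted p-values from 0.842 to 0.984. Condensin, the related SMC complex that compacts mitotic chromosomes, had 5 of 8 genes lower (Smc2, Smc4, Ncapd2, Ncapg and Ncaph) and 0 higher. Its median log2 fold change was -0.80, and among all tested genes 1.49% passed the threshold as lower. The condensin and cell-cycle lists hold genes already known to be lower in these libraries, so their counts are no independent evidence of a direction.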

How the data were processed

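Per the labels' protocols, total RNA (1 µg) of sorted pre-B cells was depleted of ribosomal RNA and made into stranded libraries. The submitters' processing notes name Trim Galore 0.6.10, STAR 2.7.11, HTSeq, DESeq2 and the build mm10; the annotation and counting settings are not given in the sources used here. The deposited table holds whole-number read counts per gene symbol, 1 column per library, made by the authors with no normalization. Columns were matched to samples by library name.

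Counts were tested with edgeR 4.0.16 in R 4.3.3: filterByExpr (minimum count 10), TMM scaling, robust glmQLFit with genotype as the sole factor over all 6 libraries, glmQLFTest, and Benjamini-Hochberg adjustment over 7792 genes at 0.05. Standard errors and 95% intervals come from the quasi-likelihood F statistic. CPM uses the TMM-scaled totals, and log2 CPM a prior count of 2. The script was tested on simulated data. Exon lengths and positions come from GENCODE M21 on GRCm38, the assembly also called mm10. Replicates differed by more than sampling noise (chi-square over its degrees of freedom 1.78 to 3.18). Alternatives covered scaling, DESeq2 1.42.0, filters, threshold, each library left out, a replicate block and sex. All 10 members are named, and of other lists the genes past the threshold and a few others chosen after their values were seen. The members and lists were chosen with earlier results of these data known. Some planned marker genes are not reported here.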

Additional observations from a re-analysis of the deposited data

How the results depend on the processing

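The male-only fit was added after the data were seen; in it and in the sex covariate the genotype effect rests on ΔrsCBE replicate 1, and the low counts of Stag3 (65 in all) and Wapl (253) limit their precision. The 132 genes called became 87 with the sex covariate, 92 with DESeq2 (91 shared) and 59 to 187 with 1 library left out, the lowest without WT replicate 3 or ΔrsCBE replicate 3. At a threshold of 0.1, 3 members (Rad21, Stag1, Stag3) were called, beside 188 of all 7792 tested genes. With the sex covariate 2 members (Smc3, Rad21) were called, beside 87 of 7792. Between 0 and 2 members were called with 1 library left out, beside 59 to 187 of all tested genes. Of the cohesin regulators, 1 (Chtf18) was called with the sex covariate and 0 to 5 with 1 library left out. Signs turned for genes near 0: Nipbl was -0.12 with the sex covariate and -0.12 in males alone, and Pds5b was 0.0092 with the filter of CPM 1 or more in 3 libraries, 0.10 with the sex covariate and 0.10 in males alone. With 1 library left out the log2 fold changes ranged from -0.29 to 0.030 for Smc1a, -0.43 to 0.040 for Smc3 and -0.067 to 0.047 for Pds5b. The cause of these shifts was not tested. With 1 library left out the log2 ratio differences kept their sign but ranged from 0.074 to 0.27 for Stag2 to Stag1, -0.77 to -0.44 for Nipbl to Wapl, -0.35 to -0.084 for Rad21 to Smc3 and -0.24 to -0.15 for Rad21 to Ctcf. Replicate numbers showed no clear pairing of the samples (correlation of same-numbered deviations 0.00908 to 0.0197). WT replicate 1 correlated best with ΔrsCBE replicate 3 (0.0345), and WT replicates 2 and 3 with ΔrsCBE replicate 2 (0.0197 and 0.0288). Deviations from means of 3 libraries constrain each other, so this check cannot exclude a pairing. With a replicate block 136 genes were called, 117 of them among the 132. Stag3 was again the 1 member, at -2.52 on the log2 scale (edgeR adjusted p-value 0.0163).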

Other observations

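Other factors that shape chromatin contacts did not pass the threshold. Of 5 DNA-binding or bridging proteins that act at promoters, enhancers or beside CTCF (Yy1, Ldb1, Zfp143, Maz and Patz1), all were tested, 0 passed, and the median log2 fold change was 0.05, with a range of -0.15 to 0.30 and a smallest edgeR adjusted p-value of 0.609 (Ldb1). Of the SMC5/6 complex, an SMC complex that acts in DNA repair, and Smchd1, an SMC-like protein of the inactive X chromosome, 6 of 7 genes were tested and 0 passed, with a median of -0.08. The lowest of them was Smc6, at -0.31 (SE 0.14, edgeR adjusted p-value 0.388).

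Genes whose log2 CPM followed a member most closely over the 6 libraries were sought among 7791 other tested genes, as a description. For Stag3 they were Gm31485 (Pearson r 0.99), Cyren (0.987) and Parp11 (0.987), for Rad21 Kmt5a (0.993), Gm7308 (0.991) and A630072M18Rik (0.991), and for Ctcf Gm4204 (0.997), A630072M18Rik (0.993) and Cchcr1 (0.991). With 6 libraries in 2 groups and so many genes, values near 1 occur readily, and none of these 8 genes passed the edgeR threshold (smallest adjusted p-value 0.0919, Kmt5a).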
